A study of Mus musculus with 6 samples.

Results

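The mitochondrial genome of the mouse carries 37 genes, and all 37 had an entry in the deposited expression table, chosen here as the entries whose name begins with mt-, out of 46450 gene symbols. They are 13 protein genes, 2 ribosomal RNA genes and 22 transfer RNA genes. The RNA came from cardiomyocytes, the contractile cells of heart muscle, isolated from excised hearts of C57BL/6 mice aged 3 months. There were 3 wild-type (WT) and 3 TFEB-/- libraries, prepared from poly(A) RNA with a TruSeq Stranded mRNA kit. TFEB is a transcription factor that drives genes of lysosomes and autophagy. The labels do not say whether Tfeb was deleted in every cell or only in heart muscle, nor that each library came from a separate animal, so p-values measure the spread between these samples, which may be technical. Values are CPM, read counts scaled to a common library total, in whole numbers as the authors deposited them. The labels put the depth of a sample between 14000000 and 75000000 read pairs, with a median of 21000000, and do not give it library by library. Errors after ± are SD over n = 3 libraries.

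Mitochondrial DNA is transcribed from both strands into long precursors that are cut, mostly at the transfer RNAs between the genes, into separate RNAs. Its protein genes encode core subunits of the respiratory chain and of ATP synthase, which work together with many subunits made from nuclear genes. In heart muscle, which is packed with mitochondria, these transcripts are among the most abundant of all. Pieces of mitochondrial DNA have also been copied into the nuclear chromosomes in evolution, and where such a copy is annotated as a gene, a read of identical sequence fits both entries.

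The 13 protein genes were above 0 in every library, and the other 24 mitochondrial genes were listed at 0 in all 6. The zeros included mt-Rnr1 and mt-Rnr2, the ribosomal RNAs, and every transfer RNA. They cannot be read as absence of the RNA, because the table listed almost every non-coding RNA at 0. Of 12693 entries for non-coding RNA only 30 were above 0 in any library, and the long nuclear RNA Malat1 was among those at 0. Of 21547 protein-coding entries 12810 were above 0. All results below are therefore about the 13 protein genes.

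Of these, 5 have a nuclear copy with a large value of its own in the table. The copies lie on chromosome 1 of GRCm38, minus strand, in a stretch of 4663 bases (chr1:24611535-24616197) that holds 7 annotated pseudogenes. Gm28437 (chr1:24613189-24613971) is a copy of mt-Co3, Gm28661 (chr1:24614885-24615565) of mt-Co2, Gm10925 (chr1:24613974-24614651) of mt-Atp6, Gm29216 (chr1:24615706-24616197) of the last part of mt-Co1, and Gm28438 (chr1:24612775-24613119) of mt-Nd3. In the GENCODE M21 transcripts, the 783 bases of Gm28437, the 681 bases of Gm28661 and the 678 bases of Gm10925 were 100% identical to the mitochondrial gene, without a gap. Of mt-Co3 (chrM:8607-9390, plus strand, protein coding) the copy lacks nothing but the final base. The ends of both (chrM:9331-9390 and chr1:24613189-24613247) are shown because the mt-Co3 entry, taken without its copy, had the largest difference between genotypes. The 1 base that is missing from the copy is in capitals.
mt-Co3: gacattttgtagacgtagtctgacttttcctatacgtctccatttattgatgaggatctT
Gm28437: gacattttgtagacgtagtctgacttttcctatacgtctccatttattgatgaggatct

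The other 2 copies differ from the mitochondrial gene only near their first base. Gm29216 matches positions 1054 to 1545 of mt-Co1, counted from the first base of the gene, with 6 differences in its 492 bases (T1056A, C1057T, A1059G, A1060G, C1062A and A1066T, the mitochondrial base first). Gm28438 has 1 difference in 345 bases (T3C). The first 60 bases of each copy and the matching stretch of the gene are shown to locate these few letters, in capitals, since no others differ within the aligned stretch. The stretches are chrM:6381-6440, chr1:24616138-24616197, chrM:9459-9518 and chr1:24613060-24613119.
mt-Co1: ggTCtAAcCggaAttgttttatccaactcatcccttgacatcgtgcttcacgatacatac
Gm29216: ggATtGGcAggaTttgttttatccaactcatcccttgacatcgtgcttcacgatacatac
mt-Nd3: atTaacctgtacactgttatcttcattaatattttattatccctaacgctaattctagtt
Gm28438: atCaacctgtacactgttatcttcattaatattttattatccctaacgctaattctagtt

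Cut into words of 31 bases, 99.9% of mt-Co3, 99.5% of mt-Co2, 99.5% of mt-Atp6, 98.1% of mt-Nd3 and 29.6% of mt-Co1 were also present in the 5 copies. The genes mt-Nd1, mt-Nd2, mt-Nd4, mt-Nd4l, mt-Nd5, mt-Nd6 and mt-Cytb shared none with them, and mt-Atp8 shared 7.47%. The remaining 2 pseudogenes of the same stretch, Gm28439 and Gm10222, were listed at 0 in all libraries, although every word of theirs is also in mt-Nd4 or mt-Nd4l. Elsewhere, Gm13340 on chromosome 2 shared 45.2% of the words of mt-Co1 and was at 15 to 25 CPM. Of the 13 genes, mt-Nd1 was alone in sharing no word with any nuclear entry, the 5 copies included.

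Neighbouring mitochondrial genes also overlap each other, so that some reads fit both. The end of mt-Atp8 (chrM:7766-7969) is the start of mt-Atp6 (chrM:7927-8607), 43 bases in capitals below, and the end of mt-Nd4l (chrM:9877-10173) is the start of mt-Nd4 (chrM:10167-11544), 7 bases in capitals in the last 60 bases of mt-Nd4l. These overlaps are shown since they set how far the values of the 2 pairs of neighbours are independent. The ends of mt-Nd5 (chrM:11742-13565) and mt-Nd6 (chrM:13552-14070) overlap by 14 bases on opposite strands. Whether reads were assigned with regard to strand is not given in the sources used here.
mt-Atp8: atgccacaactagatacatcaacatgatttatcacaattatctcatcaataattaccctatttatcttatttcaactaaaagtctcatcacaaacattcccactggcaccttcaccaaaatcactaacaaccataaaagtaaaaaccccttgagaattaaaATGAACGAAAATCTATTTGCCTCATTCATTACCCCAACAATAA
mt-Nd4l: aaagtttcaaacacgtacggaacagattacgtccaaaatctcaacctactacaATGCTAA

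Before the members, 3 facts of all libraries bear on them. Tfeb itself was at 17, 30 and 23 CPM in WT and still read in TFEB-/-, at 6, 5 and 7 CPM (limma adjusted p = 0.0267 for a log2 fold change of −1.85, SE 0.24). The Tfeb call was lost when any 1 library other than WT 1 was left out (adjusted p = 0.0604 to 0.116). Cardiomyocyte markers summed to 65274 to 86237 CPM in WT and 78556 to 100538 CPM in TFEB-/-, with none of 12 at 0. Summed macrophage markers were at 19 to 30 and 41 to 48 CPM (11 genes, Ptprc at 0, none of 9 tested called) and smooth muscle and pericyte markers at 222 to 265 and 278 to 372 CPM (7 genes, none called). The smooth muscle sum followed Acta2, at 66, 118 and 70 CPM in WT and 161, 233 and 185 CPM in TFEB-/-, while 4 of the 7 genes had a negative log2 fold change and the list's median was −0.15. Both the macrophage and the smooth muscle sums were higher in every TFEB-/- library than in every WT library, where 21.2% of all genes tested were, and their part in the results was not tested. With a filter of 5 CPM, Lyz2 of macrophages (adjusted p = 0.00992) and Acta2 of smooth muscle (adjusted p = 0.0153) were called higher, as was Tnnc1 of cardiomyocytes (adjusted p = 0.0484). With that filter 6.44% of all genes were called higher. With median-ratio scaling Cldn5 of endothelium was called lower (adjusted p = 0.0210), where 1.61% of all genes were. Endothelial markers (495 to 563 and 422 to 537 CPM), fibroblast markers (111 to 133 and 125 to 172 CPM, with 1 of 10, Pdgfra, called higher at 2 against 3 CPM in every library) and red blood cell markers (5 to 35 and 6 to 10 CPM, Alas2 at 0) overlapped between groups. Of the 12 endothelial markers 11 had a negative log2 fold change, with a median of −0.16. Of all genes tested 24.8% had a negative one, with a median of 0.24. On the main settings 3.92% of all genes tested were called higher and 0.523% lower. These calls include low genes left with almost no spread by rounding. Examples are Abcc3 (log2 fold change 1.58) and AI593442 (−1.58), each with an SE of 0.019 and limma adjusted p = 9.93e-07. The percentages are therefore a rough measure for genes as abundant as the mitochondrial ones. In bulk RNA, fewer cells of a type and less RNA per cell cannot be told apart.

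Mitochondrial transcripts took a large and variable share of every library. The mt- entries alone made up 30.7, 33.9 and 44.6% of the WT libraries and 22.2, 30.3 and 25.3% of the TFEB-/- libraries. On this count every TFEB-/- library was below every WT library, with WT 1 and TFEB-/- 2 closest. The 5 copies held another 5.001, 4.998 and 5.23% in WT and 3.99, 7.41 and 4.53% in TFEB-/-. With the copies added the shares were 35.7, 38.9 and 49.9% in WT and 26.2, 37.7 and 29.8% in TFEB-/-, and the groups overlapped, because TFEB-/- 2 then lay above WT 1. The means were 36.4 ± 7.28 and 25.9 ± 4.06% for mt- entries and 41.5 ± 7.41 and 31.2 ± 5.86% with copies, differences of −10.5 and −10.3 percentage points. WT 3 had the highest share of all, and without it the difference of the mt- entries was −6.39 percentage points. No test was made on this sum.

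**Figure D1:**
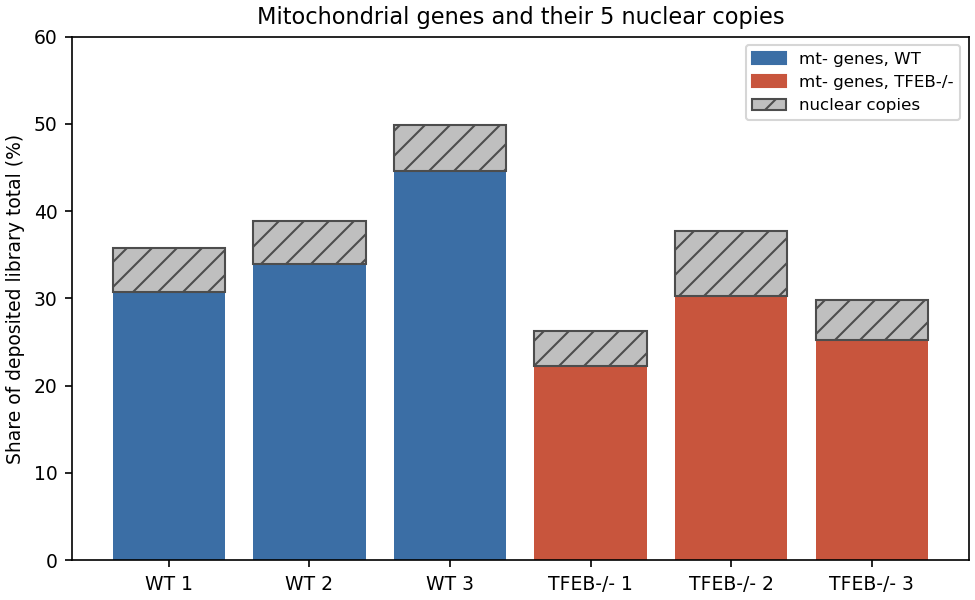
Share of each library's total CPM (y axis, percent) in the mitochondrial genes (solid bars, blue for WT, red for TFEB-/-) and in their 5 nuclear copies (hatched), 1 bar per library. The solid bars do not overlap between genotypes (22.2 to 30.3% against 30.7 to 44.6%), while the full bars do, with TFEB-/- 2 at 37.7% and WT 1 at 35.7%.

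Levels of the 13 genes were compared with each other per length, as CPM per kilobase of transcript with the copies added. The full annotated length was used, without a correction for the length of the sequenced fragments. The catalytic subunit of cytochrome c oxidase, mt-Co1, was highest, at 97282 ± 15629 CPM per kb in WT and 76721 ± 13498 in TFEB-/-. It was followed by mt-Co2 (60073 ± 11125 and 47639 ± 7864) and mt-Co3 (54867 ± 13757 and 35585 ± 8508), the other mitochondrial subunits of the same enzyme. The order mt-Co1, mt-Co2, mt-Co3, and mt-Co3 above mt-Atp6, was the same in all 6 libraries. At the bottom, mt-Nd3 (7928 ± 1242 and 5129 ± 945) and mt-Nd5 (7153 ± 648 and 6161 ± 219) lay close together. The lowest mean was that of mt-Nd5 in WT and that of mt-Nd3 in TFEB-/-. In TFEB-/- the mean of mt-Atp8 (5364 ± 2231) lay between those of mt-Nd3 and mt-Nd5. Per kb, mt-Co1 was 10.5 to 14.8 times mt-Nd5, with overlapping groups.

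Some neighbours in this order changed places between libraries. The ATP synthase subunit mt-Atp6 was at 41924 ± 14842 CPM per kb in WT and 23875 ± 7290 in TFEB-/-. Cytochrome b, mt-Cytb, was at 38747 ± 4148 and 32987 ± 6572. Of these, mt-Atp6 was above in 1 of 3 WT and 0 of 3 TFEB-/- libraries. Next came the complex I subunits mt-Nd1 (26466 ± 5813 and 16906 ± 2915 CPM per kb) and mt-Nd4 (24545 ± 4337 and 19279 ± 4031). Per kb, mt-Nd1 was 1.02, 1.08 and 1.12 times mt-Nd4 in WT and 0.910, 0.848 and 0.885 times in TFEB-/-, so that mt-Nd1 stood above mt-Nd4 in every WT library and below it in every TFEB-/- library. Neither gene shares sequence with the 5 copies. This pair was singled out after its values were seen, and no test was made. The overlapping neighbours had unequal values: mt-Nd4l per kb was at 56.6 to 61.6% of mt-Nd4 in WT and 60.9 to 65.8% in TFEB-/-, and mt-Atp8 per kb at 22.2 to 27.5% and 15.2 to 33.9% of mt-Atp6. Each pair is read from 1 messenger RNA, so these percentages are not amounts of separate RNAs. The genes mt-Atp8 and mt-Nd4l are short (204 and 297 bases), and reads of the overlaps fit both neighbours. The part of length and overlap in these values was not tested.

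The comparison of TFEB-/- with WT asks how transcript levels differ with the genotype, and each gene was tested with limma on log2(CPM + 0.5), fitted and adjusted over 12437 genes. None of the 13 protein genes passed an adjusted p of 0.05 in either direction, where 0.523% of all genes tested were called lower and 3.92% higher. All 13 had a negative log2 fold change, from −1.36 to −0.21 with a median of −0.38, against a median of 0.24 over all genes, of which 24.8% were negative. An unadjusted p below 0.05 was found for 5 of the 13 (mt-Nd1, mt-Atp6, mt-Co3, mt-Nd3 and mt-Nd6), all lower, against 2.30% of all genes that were lower at that p. That count was 0 without TFEB-/- 1, 1 without TFEB-/- 3 and 2 without WT 2 or WT 3. In 7 of the 13 every TFEB-/- library was below every WT library, against 2.28% of all genes. All values are shares of 1 library total, so a difference in the mitochondrial total moves the 13 genes together, and they are not independent. When libraries were put on median-ratio size factors, the median of all genes became 0.01 and that of the 13 genes −0.62, with 8 of 13 groups apart against 11.8% of all genes lower without overlap. None of the 13 was called there either (smallest adjusted p = 0.0775, mt-Co3), while 1.61% of all genes were called lower.

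**Figure D2:**
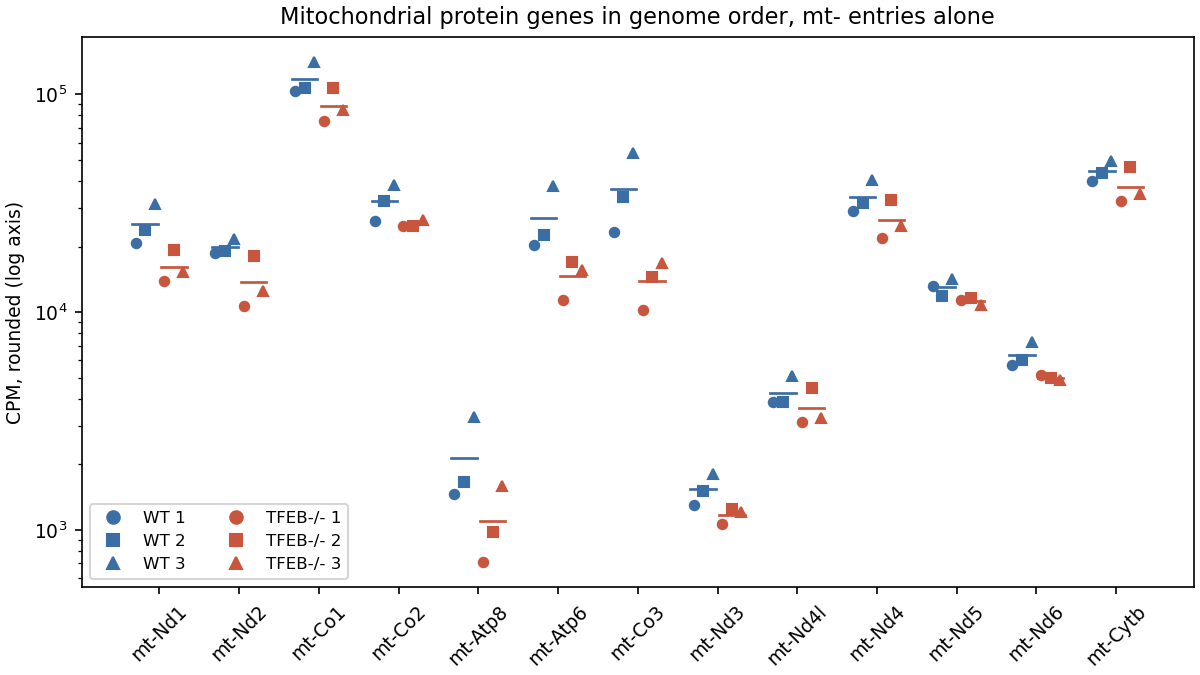
CPM of the 13 mitochondrial protein genes, mt- entries alone, in genome order (y axis, log scale; 1 symbol per library, blue WT, red TFEB-/-, lines at group means). WT 3 is the highest WT library in all 13 genes, and TFEB-/- 2 is the highest of its group in 9.

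The library WT 3 was the highest of the WT group in 13 of 13 genes, and WT 1 the lowest in 12. In the TFEB-/- group TFEB-/- 2 was highest in 9 and TFEB-/- 1 lowest in 10. Spread within a genotype was therefore mostly common to all 13 genes.

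Complex I, the NADH dehydrogenase that feeds electrons into the chain, has 7 mitochondrial subunits. Of these, mt-Nd1 (chrM:2751-3707), which forms part of the quinone site, was at 20701, 23783 and 31501 CPM in WT and at 13903, 19291 and 15343 CPM in TFEB-/-. The groups did not overlap, though WT 1 and TFEB-/- 2 were close. The log2 fold change was −0.64 (SE 0.21, 95% interval −1.19 to −0.08, adjusted p = 0.175). The membrane pump subunit mt-Nd2 (chrM:3914-4951) was at 18734, 19152 and 21655 CPM and at 10703, 18138 and 12496 CPM, again with TFEB-/- 2 nearest to WT (log2 fold change −0.56, adjusted p = 0.221).

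The log2 fold changes of mt-Nd4, mt-Nd4l and mt-Nd5 were smaller in size, though their 95% intervals overlapped those of mt-Nd1 and mt-Nd2. For mt-Nd4 the values were 29134, 31783 and 40552 CPM in WT and 21993, 32748 and 24957 CPM in TFEB-/-, where TFEB-/- 2 exceeded 2 of the WT libraries (log2 fold change −0.35, 95% interval −0.90 to 0.19). For mt-Nd4l, read from the same messenger RNA as mt-Nd4, they were 3869, 3874 and 5060 CPM and 3119, 4469 and 3277 CPM, with the same overlap (log2 fold change −0.24). The values of mt-Nd5 were 13149, 11819 and 14175 CPM and 11323, 11589 and 10802 CPM, apart by a small margin (log2 fold change −0.21, 95% interval −0.46 to 0.03, adjusted p = 0.254). This was the smallest difference of the 13.

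The subunit mt-Nd6 is the sole protein gene on the minus strand, and is thus transcribed from the other promoter than the 12 genes of the plus strand. It was at 5732, 6050 and 7256 CPM in WT and at 5117, 4994 and 4892 CPM in TFEB-/-. Its TFEB-/- libraries were close to each other and below all WT libraries (log2 fold change −0.34, SE 0.11, adjusted p = 0.164). Relative to the 12 plus-strand genes with copies, mt-Nd6 was at 1.63, 1.58 and 1.48% in WT and 1.99, 1.34 and 1.67% in TFEB-/-, with overlapping groups. TFEB-/- held both the highest and the lowest of these ratios. The small subunit mt-Nd3 is described with its copy.

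Complex III passes electrons from quinone to cytochrome c, and mt-Cytb (chrM:14145-15288) is its mitochondrial subunit. It was at 40036, 43520 and 49423 CPM in WT and at 32214, 46299 and 34699 CPM in TFEB-/-. Here TFEB-/- 2 was above WT 1 and WT 2 (log2 fold change −0.24, 95% interval −0.71 to 0.22, adjusted p = 0.445).

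Complex IV, cytochrome c oxidase, reduces oxygen, and its 3 core subunits all have copies. The entry mt-Co3, for a subunit that supports the catalytic core, was at 23307, 33793 and 53686 CPM in WT and at 10220, 14505 and 16828 CPM in TFEB-/-. The groups were apart, and the log2 fold change of −1.36 (SE 0.38, 95% interval −2.33 to −0.39, adjusted p = 0.124) was the largest of the 13. Its copy Gm28437 was at 11061, 5786 and 1415 CPM in WT and at 11908, 20697 and 9537 CPM in TFEB-/-, that is in the opposite direction (log2 fold change 1.57, SE 0.85, adjusted p = 0.309). The library with most mt-Co3, WT 3, had least Gm28437.

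The sum of both, which identical sequence leaves unaffected by how reads were divided, was 34368, 39579 and 55101 CPM in WT and 22128, 35202 and 26365 CPM in TFEB-/-. On this sum TFEB-/- 2 exceeded WT 1, and the log2 fold change was −0.62 (SE 0.26, 95% interval −1.30 to 0.06, adjusted p = 0.237). The copy held 32.2, 14.6 and 2.57% of the sum in WT and 53.8, 58.8 and 36.2% in TFEB-/-. These shares did not overlap (exact two-sided permutation p = 0.1, the smallest possible with 3 against 3, and 0.167 adjusted over the 5 pairs). The mt-Co3 entry was called lower with a filter of 5 CPM (adjusted p = 0.0295, where 0.665% of genes were) and with robust hyperparameters (adjusted p = 0.0302, where 0.635% were). Over all 24 alternatives its adjusted p ran from 0.0295 to 0.502.

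**Figure D3:**
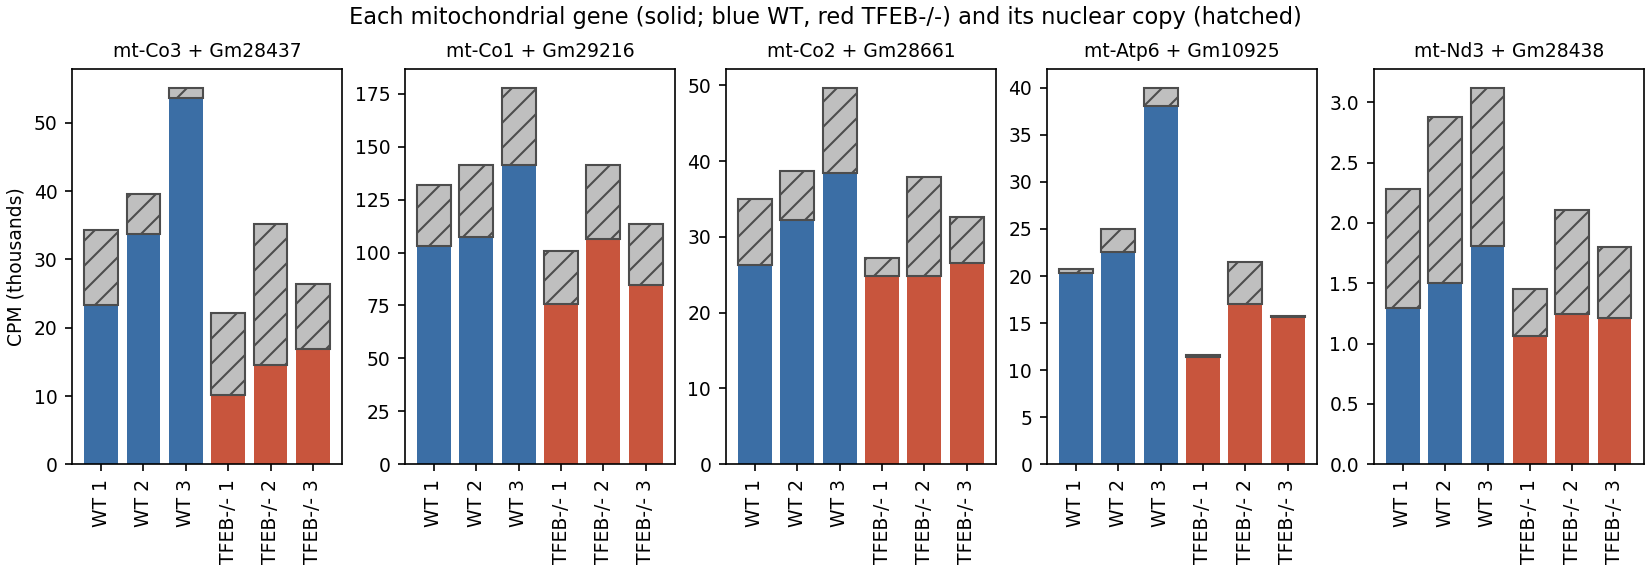
CPM in the units of the axis label (y axis, a scale of its own in each panel) of each mitochondrial gene (solid, blue WT, red TFEB-/-) with its nuclear copy stacked on top (hatched), 1 bar per library. In the mt-Co3 panel the copy's part runs from 2.57% of the bar in WT 3 to 58.8% in TFEB-/- 2, so that solid bars are apart between genotypes and full bars are not.

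The catalytic subunit mt-Co1 (chrM:5328-6872) was the most abundant entry in the table, at 103264, 107216 and 141210 CPM in WT and 75566, 106478 and 84535 CPM in TFEB-/-, with TFEB-/- 2 between WT 1 and WT 2 (log2 fold change −0.40, adjusted p = 0.281). Gm29216 was at 28771, 33973 and 36468 CPM and at 25129, 34983 and 28910 CPM (log2 fold change −0.16). It held 20.5 to 24.1% of the sum in WT and 24.7 to 25.5% in TFEB-/-. These shares did not overlap either (exact two-sided permutation p = 0.1, and 0.167 adjusted over the 5 pairs). Of the 5 pairs, this one had the smallest SD of the copy's share in each genotype. With the copy added the log2 fold change of mt-Co1 was −0.35 (SE 0.19, adjusted p = 0.325).

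The entry mt-Co2 (chrM:7013-7696), which receives electrons from cytochrome c, was at 26224, 32245 and 38434 CPM in WT and 24898, 24835 and 26558 CPM in TFEB-/-. The TFEB-/- libraries were close together and 1 of them was above WT 1 (log2 fold change −0.33, adjusted p = 0.272). Its copy Gm28661 ranged more widely, at 8775, 6405 and 11186 CPM and at 2281, 13102 and 6082 CPM, between 8.39 and 34.5% of the sum in TFEB-/-. The sums were 34999, 38650 and 49620 CPM and 27179, 37937 and 32640 CPM, so that the closeness of the mt-Co2 entries in TFEB-/- was not found in the sums (log2 fold change −0.33, SE 0.20, adjusted p = 0.349).

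Complex V, the ATP synthase, has 2 mitochondrial subunits of its membrane part, read from 1 messenger RNA. The proton channel subunit mt-Atp6 was at 20342, 22526 and 38102 CPM in WT and at 11416, 17039 and 15618 CPM in TFEB-/-. These groups were apart (log2 fold change −0.84, SE 0.31, 95% interval −1.63 to −0.05, adjusted p = 0.196). Its copy Gm10925 was at 399, 2417 and 1864 CPM and at 154, 4420 and 129 CPM, so TFEB-/- held both the highest and the lowest values. With the copy added the values were 20741, 24943 and 39966 CPM and 11570, 21459 and 15747 CPM, and TFEB-/- 2 passed WT 1 (log2 fold change −0.80, adjusted p = 0.253).

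The short gene mt-Atp8 was at 1457, 1660 and 3296 CPM in WT and at 710, 976 and 1597 CPM in TFEB-/-. Its log2 fold change was −0.95, but TFEB-/- 3 was above WT 1 and the 95% interval ran from −2.12 to 0.23 (adjusted p = 0.265). In both groups the highest library stood well above the other two.

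For mt-Nd3 (chrM:9459-9806), adding the copy made the difference larger. The mt-Nd3 entry was at 1298, 1504 and 1810 CPM in WT and at 1062, 1242 and 1212 CPM in TFEB-/-. Its log2 fold change was −0.38 (SE 0.15) and its adjusted p = 0.214. Gm28438 was at 981, 1377 and 1307 CPM and at 388, 865 and 586 CPM, lower in every TFEB-/- library (log2 fold change −1.05, SE 0.33, adjusted p = 0.159). Gm28438 passed the threshold with a filter of 5 CPM (adjusted p = 0.0459) and with robust hyperparameters (adjusted p = 0.0475). The sums were 2279, 2881 and 3117 CPM and 1450, 2107 and 1798 CPM, apart between groups, and the log2 fold change was −0.63 (SE 0.19, 95% interval −1.13 to −0.13, adjusted p = 0.149). The copy's part was 41.9 to 47.8% in WT and 26.8 to 41.1% in TFEB-/-, the reverse order of the mt-Co3 pair.

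With all 5 copies added and settings otherwise as in the main fit, none of the 13 genes was called. Adjusted p-values from limma ran from 0.149 to 0.482, where 0.523% of all genes were called lower and 3.93% higher. Adding copies was not combined with the filter of 5 CPM or with robust hyperparameters. The log2 fold changes then ran from −0.95 (mt-Atp8) to −0.21 (mt-Nd5), and that of mt-Co3, at −0.62, was no longer the largest. In 5 of 13 genes (mt-Nd1, mt-Nd2, mt-Nd3, mt-Nd5 and mt-Nd6) every TFEB-/- library was lower than every WT library, against 2.28% of all genes. All 5 are subunits of complex I. With copies kept apart the groups of mt-Co3 and mt-Atp6 did not overlap, and with copies added they did.

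**Figure D4:**
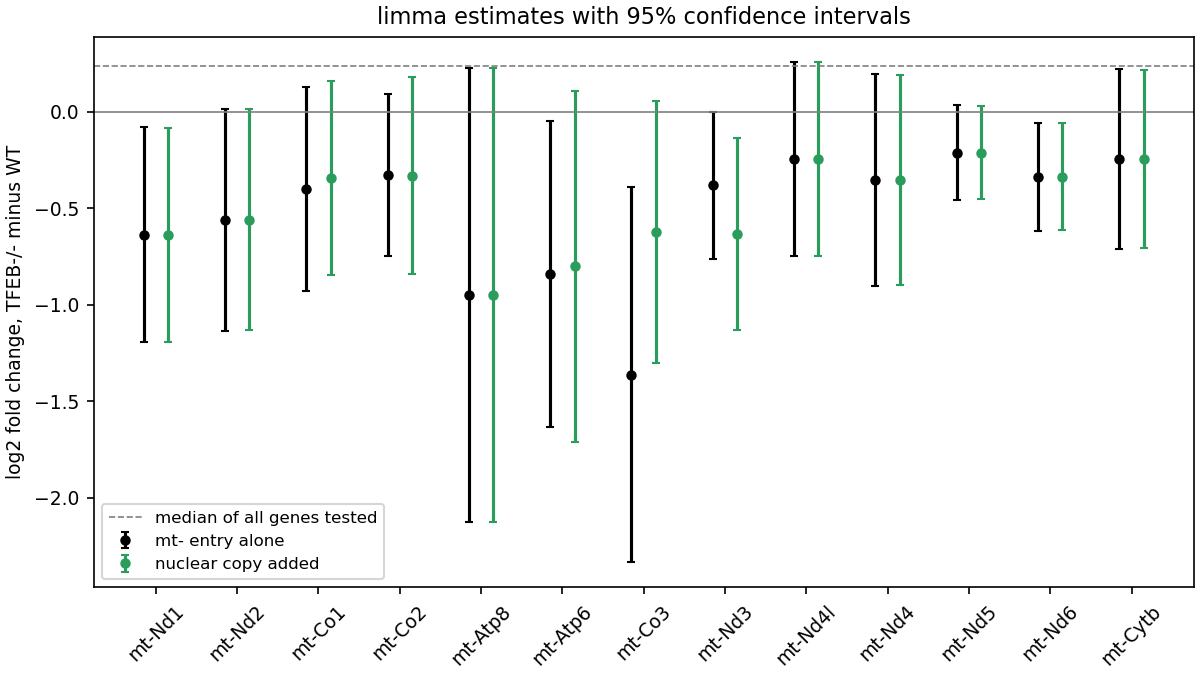
Log2 fold change, TFEB-/- minus WT, with 95% intervals from limma (y axis) for the 13 genes in genome order, for the mt- entry alone (black) and with the nuclear copy added (green). The dashed line is the median of all genes tested, 0.24, and mt-Co3 moves from −1.36 to −0.62 when Gm28437 is added.

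To set the genes against each other without the library total, each was expressed as its share of the summed mRNA of the 13 genes, copies added. On this measure mt-Co1 made up 36.3 ± 0.655% in WT and 38.0 ± 0.433% in TFEB-/-. Shares were higher in every TFEB-/- library for mt-Co1, mt-Co2, mt-Nd4l, mt-Nd4 and mt-Cytb, and lower in every one for mt-Nd1, mt-Atp6, mt-Co3 and mt-Nd3. For mt-Nd2, mt-Atp8, mt-Nd5 and mt-Nd6 the groups overlapped. Relative to the same total, 0.692% of all genes tested were lower and 30.4% higher without overlap, a split that includes the shift of the total itself. Of the 13 exact two-sided permutation tests none can go below p = 0.1, and the smallest adjusted p was 0.144.

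The share of mt-Nd1 was 5.79, 6.12 and 6.32% in WT and 5.30, 5.12 and 5.15% in TFEB-/-, with a gap between the groups. For mt-Cytb it was 11.2, 11.2 and 9.92% in WT and 12.3, 12.3 and 11.6% in TFEB-/-. The share of mt-Nd4 was 8.16, 8.17 and 8.14% in WT and 8.39, 8.69 and 8.37% in TFEB-/-, almost the same in all WT libraries although their mitochondrial totals differed widely. The share of mt-Co3 was 9.62, 10.2 and 11.1% in WT and 8.44, 9.35 and 8.85% in TFEB-/-, a difference of −1.41 percentage points, against −4.51 for the mt-Co3 entry alone. With mt- entries alone, 3 genes were apart in each direction, mt-Nd1, mt-Atp6 and mt-Co3 lower and mt-Nd4l, mt-Nd4 and mt-Cytb higher.

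**Figure D5:**
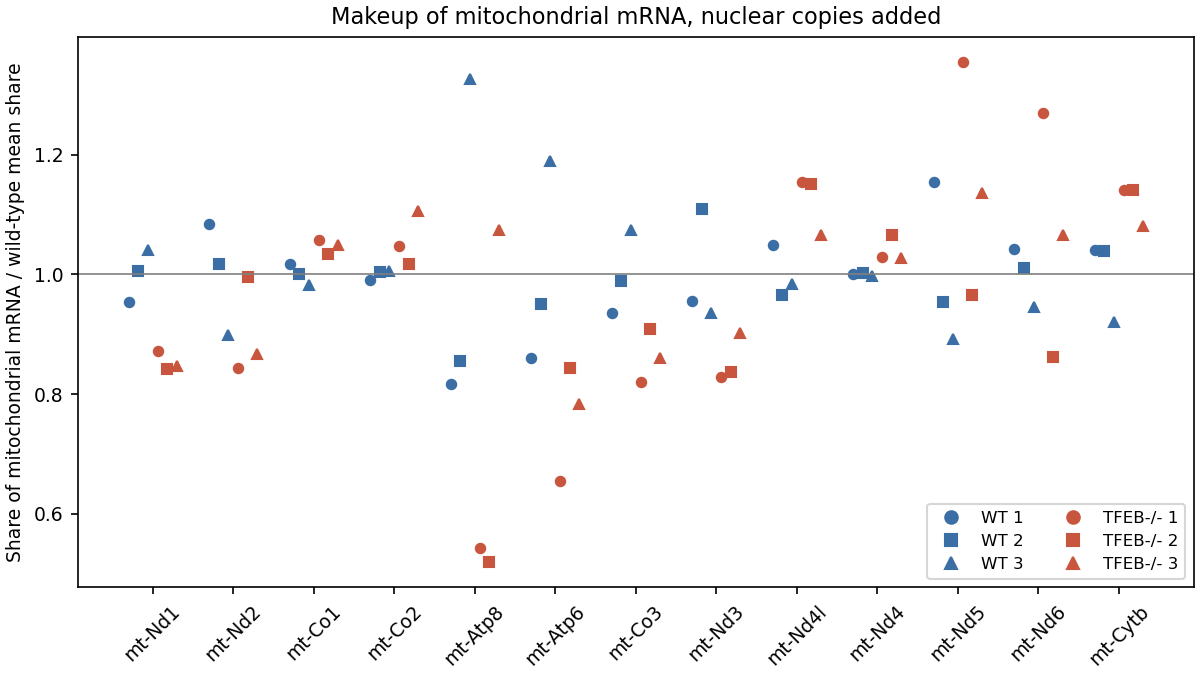
Share of each gene in the summed mitochondrial mRNA, copies added, divided by the mean WT share of that gene (y axis, 1 symbol per library, blue WT, red TFEB-/-). The red symbols of mt-Nd1, mt-Atp6, mt-Co3 and mt-Nd3 lie below all blue ones, and those of mt-Co1, mt-Co2, mt-Nd4l, mt-Nd4 and mt-Cytb above.

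Nuclear genes for the same complexes were read beside them. None of the 36 nuclear subunits of complex I, 9 of complex III, 15 of complex IV and 16 of complex V that were tested passed the threshold in either direction, nor did the 4 subunits of complex II, which has no mitochondrial gene. Their median log2 fold changes were 0.11, 0.16, 0.08, 0.16 and 0.10, all positive and below the median of all genes, 0.24. The most abundant were the ATP synthase subunits Atp5b, at 4728 ± 712 CPM in WT and 5687 ± 678 in TFEB-/- (log2 fold change 0.27), and Atp5a1 (log2 fold change 0.06). Of the next, Cox4i1 and Cox6a2 of complex IV had log2 fold changes of 0.17 and 0.14, Sdha and Sdhb of complex II 0.26 and 0.06, Cyc1 and Uqcrc2 of complex III 0.02 and −0.12, and Ndufv1 of complex I 0.25, none past the threshold. With median-ratio scaling those of Atp5a1, Cox4i1, Cox6a2, Sdhb and Cyc1 turned negative. The inhibitor of ATP synthase Atpif1 (80.7 ± 6.11 and 127.3 ± 19.0 CPM) was not called on the main settings (adjusted p = 0.0716). It was called higher with a filter of 5 CPM (adjusted p = 0.0408, where 6.44% of genes were) and with robust hyperparameters (adjusted p = 0.0341, where 6.27% were).

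Summed over subunits, the mitochondrial part of complex I was at 93598, 99342 and 123316 CPM in WT and 67608, 93336 and 73565 CPM in TFEB-/-, copies added, and the nuclear part at 9558 to 12991 and 11466 to 13004 CPM. The ratio of the sums, which does not depend on the library total, was 8.17, 7.65 and 12.9 in WT and 5.20, 8.14 and 5.72 in TFEB-/-. The same ratio was 7.85 to 11.9 and 5.91 to 9.42 for complex III, 22.3 to 39.6 and 16.7 to 25.7 for complex IV, and 1.22 to 2.96 and 0.610 to 1.31 for complex V. In all 4 complexes the mean was lower in TFEB-/- and the groups overlapped, with TFEB-/- 2 above at least 1 WT library. CPM are not scaled by length here, so these ratios compare libraries and not the amounts of subunits.

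Genes that make and process mitochondrial RNA were also read. In the list for transcription and replication of mitochondrial DNA, 0 of 16 tested genes passed the threshold (median log2 fold change 0.13). The mitochondrial RNA polymerase Polrmt was at 37, 35 and 34 CPM in WT and at 48, 39 and 44 CPM in TFEB-/-. It was higher in every TFEB-/- library, as were 21.2% of all genes tested. Its log2 fold change was 0.30 (SE 0.09, adjusted p = 0.154), against a median of 0.24 over all genes. The DNA polymerase Polg was at 49, 42 and 42 CPM and at 47, 38 and 43 CPM. With median-ratio scaling, where 1.61% of all genes were called lower, 1 gene of this list was, the mitochondrial transcription regulator Mterf2, whose deposited values were 19, 19 and 17 CPM in WT and 10, 14 and 12 CPM in TFEB-/- (rescaled log2 fold change −0.83, adjusted p = 0.0392).

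Of 22 tested genes for processing and decay of mitochondrial RNA, 20 for modification of its transfer and ribosomal RNAs and 12 for translation factors, 0 passed, with median log2 fold changes of 0.13, 0.17 and 0.14. The most abundant were the RNA-binding proteins Fastk (log2 fold change 0.07) and Grsf1 (0.03) and the elongation factors Tufm (0.10) and Gfm1 (0.03), all negative with median-ratio scaling. Ptcd1, a protein bound to mitochondrial transfer RNAs, was at 26, 26 and 19 CPM in WT and 44, 34 and 42 CPM in TFEB-/-. It was not called on the main settings. After median-ratio rescaling it was called higher (a log2 fold change of 0.52, adjusted p = 0.0433, where 3.87% of genes were). On the deposited values its log2 fold change was 0.75. There it was called higher with a filter of 5 CPM (adjusted p = 0.0351, where 6.44% of genes were) and with robust hyperparameters (adjusted p = 0.0284, where 6.27% were). Of 14 tested genes of the mitochondrial stress response 1 was called higher, where 3.92% of all genes were, the serine synthesis enzyme Psat1, at 1 CPM in every WT library and 3 CPM in every TFEB-/- one, which is 2 rounding steps (limma log2 fold change 1.22, adjusted p = 4.32e-05). Of 12 immediate early genes, which respond to cell isolation, 0 passed, and their sums overlapped (3047 to 3802 and 2390 to 5884 CPM).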

How the data were processed

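The deposited table gives 1 score per gene and library, whole numbers that the authors' file name calls kallisto CPM. Libraries summed to 999505 to 999655, so the values are not read counts. Depth is given in the labels only as a range over samples, and rounding limits each value to 0.5 CPM. Per the submitters' processing notes, GRCm38 was the build and kallisto, Salmon, RSEM, STAR, HISAT2, StringTie, edgeR and DESeq2 were among the tools, with no order given. Names that had become dates (26) were restored through IDs of GENCODE M21, entries without a name (303) kept their ID, and values of equal symbols were summed. Genes at 1 CPM or more in at least 3 libraries (12437) were tested with limma 3.58.1 (R 4.3.3) on log2(CPM + 0.5), eBayes with trend, genotype as the only term, two-sided, Benjamini-Hochberg over all genes, threshold 0.05. The fit had 4 residual degrees of freedom (4.88 in all after moderation). Count models were not used. Recovery was tested on simulated data.

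Shared sequence was counted as exact words of 31 bases in the GENCODE M21 transcripts, and each copy was aligned to the mitochondrial gene it shared most words with (Biopython 1.88). For "copies added", the copy's CPM were added to that gene. Named genes are the mitochondrial genes above 0, the 5 copies, Tfeb, and by list up to 2 called members in each direction or else the 2 most abundant. The 32 list genes so chosen are reported in part. Mterf2, Ptcd1, Atpif1, Gm28439, Gm10222, Gm13340, Gm13341, Gm20594, Tnnc1, Cldn5, Malat1, Ptprc and Alas2 were added after their values were seen. The members and the lists were chosen with earlier results of these data known. Alternatives were another pseudocount, filter or scaling, robust hyperparameters, the replicate number as a block, copies added, and each library left out.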

Additional observations from a re-analysis of the deposited data

How the results depend on the processing

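The 13 protein genes kept a negative log2 fold change in all 24 alternatives. The number called lower, 0 on the main settings, was 1 with a filter of 5 CPM and 1 with robust hyperparameters, mt-Co3 in both, and 0 in the other 22, among them each library left out. The number called higher was 0 throughout. Over all genes the counts of higher and lower calls, 487 and 65, were 481 and 200 with median-ratio scaling, 474 and 171 with CPM without mitochondrial transcripts, 780 and 79 with robust hyperparameters, and 154 to 406 and 38 to 87 with 1 library left out. Same-numbered libraries did not deviate together (r = 0.144, −0.049 and 0.088 over 12437 genes), so the numbers were not taken to pair them. With the replicate block the counts were 159 and 26 and none of the 13 genes passed (smallest adjusted p = 0.0877, mt-Atp8). The block ended the Tfeb call (adjusted p = 0.112). It cannot move the difference in mitochondrial share, −10.5 percentage points, since each number has 1 library of each genotype. That difference was −13.3 to −6.39 with 1 library left out.

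Signs turned for several genes that were not called. With median-ratio scaling the log2 fold change was −0.18 for Sdhb, −0.22 for Cyc1, −0.070 for Cox4i1, −0.10 for Cox6a2, −0.18 for Atp5a1, −0.17 for Fastk, −0.20 for Grsf1, −0.13 for Tufm and −0.21 for Gfm1. With CPM without mitochondrial transcripts it was −0.18 for Sdhb, −0.22 for Cyc1, −0.068 for Cox4i1, −0.099 for Cox6a2, −0.18 for Atp5a1, −0.17 for Fastk, −0.20 for Grsf1, −0.13 for Tufm and −0.21 for Gfm1. With 1 library left out the lowest and highest values were −0.079 and 0.13 for Atp5a1, −0.086 and 0.12 for Cyc1, −0.045 and 0.18 for Fastk, −0.041 and 0.15 for Gfm1, −1.20 and 0.059 for Gm28661, −0.063 and 0.12 for Grsf1, −0.13 and 0.024 for Polg, −0.038 and 0.11 for Sdhb and −0.016 and 0.20 for Tufm. The cause was not tested. The Pdgfra call was lost under 4 alternatives (adjusted p = 0.0548 to 0.394). Both ribosomal RNAs are listed at 0, so putting them into the denominator of the shares could not change these, and it was not run. At 14000000 read pairs or more per sample, rounding to whole CPM limits low genes such as Psat1 and Pdgfra.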

Other observations

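A small nuclear gene with sequence from the mitochondrial ribosomal RNA was read although the ribosomal RNA entries are at 0. Gm20594 (chr6:79817916-79818364, plus strand, protein coding) shares 42 words of 31 bases with mt-Rnr2. It was at 826, 629 and 491 CPM in WT and at 404, 440 and 535 CPM in TFEB-/-. Its log2 fold change was −0.47 (SE 0.23) with limma's adjusted p = 0.266. Its order among WT libraries is the reverse of that of the mitochondrial total, which was highest in WT 3. Among TFEB-/- libraries the order was not reversed, as TFEB-/- 1 was lowest in both. The copies on chromosome 2, Gm13340 of mt-Co1 and Gm13341 of mt-Co2, which share 45.2 and 47.1% of the words of their gene, were at 18, 15 and 23 against 20, 25 and 23 CPM and at 2, 2 and 4 against 1, 2 and 2 CPM. These values are far below those of the copies on chromosome 1.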
